A study of Homo sapiens with 36 samples.

Results

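The genes described here are 9 genes of major histocompatibility complex (MHC) class I antigen presentation, of 74628 genes in the count table. They were found by matching Ensembl identifiers to symbols: the class I heavy chains HLA-B, HLA-C, HLA-E and HLA-F, the light chain B2M, the peptide transporter subunits TAP1 and TAP2, the immunoproteasome subunit PSMB9 and the transactivator NLRC5. All 9 passed the filter on low counts, as did 27553 genes of the whole table in the fit of single RNA samples. The study used Jurkat, a human T cell leukaemia line, stably carrying dCas9-VP64 and labelled mCherry+. In this CRISPR activation (CRISPRa) system a catalytically dead Cas9 brings a VP64 activation domain to the promoter named by a guide RNA. Cells received a lentiviral vector with either sgRELA, a single guide against the NF-kB subunit gene RELA, or sgControl, labelled non-targeting, and were selected with puromycin. Each guide was transduced in triplicate and harvested on days 5, 6 and 7, which gives 6 groups of 3 RNA samples. Each RNA was made into 2 libraries of total RNA by RamDA-seq, a full-length method for very small inputs, here 100 pg. All groups share dCas9-VP64, vector and selection, and each arm rests on 1 guide in 1 line.

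Class I molecules show peptides from inside the cell to CD8+ T cells. Proteins are cut by the proteasome, in which PSMB9 replaces a constitutive subunit to form the immunoproteasome, and TAP1 with TAP2 pump the peptides into the endoplasmic reticulum. There they are loaded onto a heavy chain paired with B2M. Promoters of the classical heavy chain genes carry an NF-kB element, an interferon response element and the SXY module, on which NLRC5 acts with the RFX, CREB/ATF and NFY factors.

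The promoter stretches of HLA-B, HLA-C and B2M are printed, and 30 bases of TAP1 are added for its NF-kB match. All of them hold such a match, and of these genes HLA-B was called for the guide while HLA-C, B2M and TAP1 were not. The part of the matches in the levels was not tested. Sequences are from RefSeq (GRCh38.p14), 5′ to 3′ on the gene's strand, and run from base -200 to base -45 before the transcript start except for TAP1, which runs from -83 to -54. Capitals mark matches to the NF-kB consensus and, in B2M, also to the interferon-stimulated response element form described below. The coordinates are chr6:31357224-31357379 (minus strand) for HLA-B, chr6:31272137-31272292 (minus strand) for HLA-C, chr15:44711317-44711472 (plus strand) for B2M and chr6:32853758-32853787 (minus strand) for TAP1.
HLA-B: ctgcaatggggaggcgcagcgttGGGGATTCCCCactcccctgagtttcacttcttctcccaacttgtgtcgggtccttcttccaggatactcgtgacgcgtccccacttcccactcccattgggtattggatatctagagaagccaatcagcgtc
HLA-C: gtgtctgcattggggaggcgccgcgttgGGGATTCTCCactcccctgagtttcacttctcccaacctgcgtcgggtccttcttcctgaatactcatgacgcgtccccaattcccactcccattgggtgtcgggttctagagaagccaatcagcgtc
B2M: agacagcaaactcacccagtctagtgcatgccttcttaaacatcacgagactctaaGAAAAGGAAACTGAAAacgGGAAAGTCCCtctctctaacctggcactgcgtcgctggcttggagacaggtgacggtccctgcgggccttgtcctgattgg
TAP1: agcctgttcctGGGACTTTCCgagagcccc
RefSeq promoter windows were matched for 7 of the 9 genes, and HLA-E and NLRC5 are named only. The 250 bases before each start were searched on both strands for the NF-kB consensus, an interferon-stimulated response element form (a pair of GAAA repeats 2 bases apart), TGACG (the cyclic AMP response core) and CCAAT (the Y box core). The NF-kB consensus was matched in HLA-B, HLA-C, B2M and TAP1, and in 9.96% of 35116 windows of the same length. In HLA-B 2 overlapping matches, each read on both strands, span bases -177 to -167, and in HLA-C 1 match spans bases -172 to -163. The interferon element form was matched in HLA-F, B2M, TAP1 and TAP2, and in 3.02% of windows. HLA-B, HLA-C and PSMB9 held no match to this form, which does not show that they lack an interferon response element spelled otherwise. TGACG was in 21.2% and CCAAT in 32% of windows, and HLA-B, HLA-C, B2M and PSMB9 held both. TAP2 held TGACG without CCAAT, and HLA-F and TAP1 held CCAAT without TGACG. The windows of TAP1 (chr6:32853705-32853954) and PSMB9 (chr6:32853942-32854191) overlap, and their CCAAT matches are the same bases. The NF-kB match of TAP1 lies outside the PSMB9 window. The TAP1 matches lie before the first of its 2 RefSeq starts, and the window before the other start, at chr6:32852761, held none of these forms. A match describes letters of the reference, not a bound site, and the alleles of this line can differ from it.

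**Figure D1:**
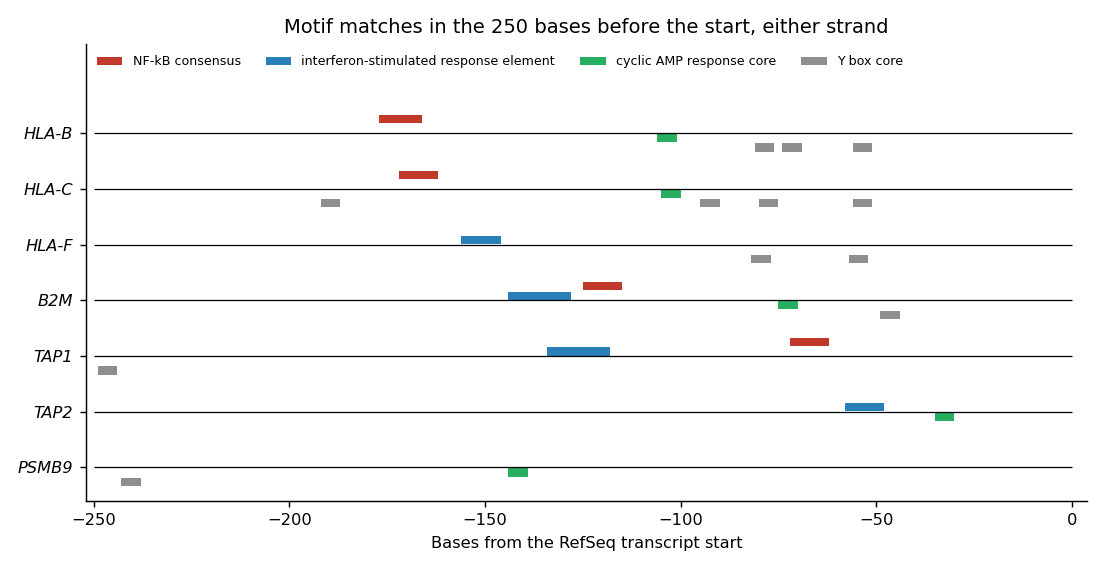
Motif matches in the 250 bases before the RefSeq transcript start of 7 genes, with distance from the start in bases on the x axis and 1 line per gene; coloured blocks are matches on either strand, and overlapping matches merge. The NF-kB consensus is matched in HLA-B, HLA-C, B2M and TAP1. For TAP1 only the first of its 2 RefSeq starts is shown.

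RELA, the targeted gene, was checked first. It lay between 20.23 and 39.26 CPM (counts of a gene relative to the library total, scaled by TMM factors) in the 9 sgControl RNA samples and between 119.8 and 318.5 CPM in the 9 sgRELA samples. The log2 fold change was 3.14 on day 5, 3.07 on day 6 and 2.36 on day 7. Library totals ran from 7586205 to 16124473 counts and RNA totals, with both libraries added, from 18769530 to 29503934. T cell genes marked the line as labelled: CD3D, CD3E, CD3G and LCK had means from 358.4 to 778.8 CPM over the days, while the epithelial marker EPCAM and the fibroblast marker COL1A2 were at 0 in all sums. The other epithelial markers, KRT8 and CDH1, and the fibroblast marker DCN stayed at or below 0.6243 CPM, and the fibroblast marker COL1A1 was at 6.227 CPM in sgControl and 5.732 CPM in sgRELA. Of 7 T cell markers 1 was called for the guide across days, CD28 (log2 fold change 0.31, adjusted p = 0.0177, edgeR), beside 0.363% of all genes. Of B cell markers MS4A1 stayed at or below 0.0561 CPM, whereas CD79A was at 19.8 CPM in sgControl and 56.0 CPM in sgRELA (adjusted p = 3.88e-11, edgeR quasi-likelihood test); the part of these markers in the results was not tested. Library 1 of sgControl day 5 replicate 2 and library 1 of sgControl day 6 replicate 1 had the fewest detected genes, 25398 and 26526 against 26605 to 29057 in the other 34 libraries. Without them, 61 of 63 log2 fold changes of the 9 genes for the guide or between days of sgControl stayed on the same side of the test, with a median shift of 0.06 and a largest shift of 0.27. The exceptions were HLA-E for the guide across days and HLA-B from day 5 to day 6 in sgControl (-0.25, adjusted p = 0.0281, edgeR), both called without them.

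HLA-B, a classical heavy chain that presents peptides to CD8+ T cells, was higher under sgRELA on every day, and it was the only one of the 9 genes to pass the test of the guide. On day 5 it was at 172.2, 177.3 and 178.5 CPM in sgControl and at 263.2, 241.5 and 241.7 CPM in sgRELA. On day 6 the values were 156.0, 141.4 and 165.2 CPM in sgControl and 229.0, 221.5 and 224.7 CPM in sgRELA. On day 7 they were 98.63, 103.1 and 99.16 CPM against 144.9, 142.0 and 152.7 CPM. The groups did not overlap on any day. With all days added the level was 141.8 ± 3.25 CPM (SD, n = 3) in sgControl and 206.5 ± 5.11 CPM (SD, n = 3) in sgRELA. The log2 fold change across days was 0.54 ± 0.047 (SE), with edgeR's quasi-likelihood test giving a Benjamini-Hochberg adjusted p of 3.43e-07. By day it was 0.50 (adjusted p = 0.00122, edgeR), 0.55 (adjusted p = 0.000255) and 0.55 (adjusted p = 0.000389). Among all genes 0.363% were called across days (adjusted p under 0.05), 0.138% on day 5, 0.214% on day 6 and 0.0907% on day 7. With the first library of each RNA only, HLA-B kept a log2 fold change of 0.48, 0.46 and 0.59 but was not called on days 5, 6 and 7 (adjusted p = 0.541, 0.59 and 0.247, edgeR). Without sgRELA replicate 1 the day 5 call was lost (0.46, adjusted p = 0.057, edgeR).

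**Figure D2:**
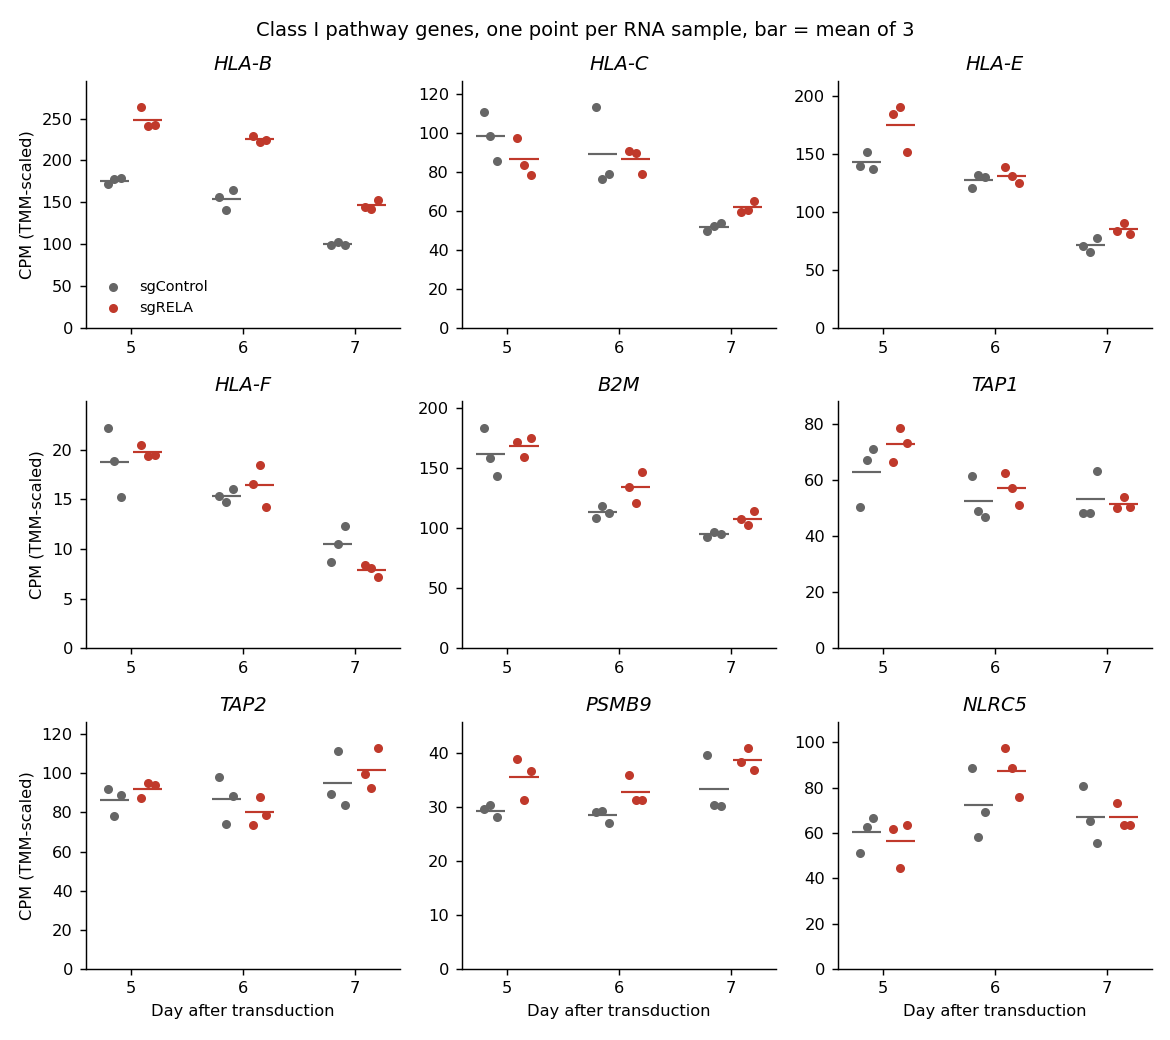
CPM of the 9 genes in 18 RNA samples by day after transduction, 1 panel per gene; points are RNA samples and bars the mean of 3. HLA-B is higher in sgRELA in every sample of each day, and the heavy chains and B2M fall toward day 7.

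HLA-C, the other classical heavy chain measured here, did not pass the test. On day 5 it was at 110.9, 98.45 and 86.02 CPM in sgControl and at 97.39, 83.82 and 78.81 CPM in sgRELA. On day 6 the sgControl values were 113.3, 76.38 and 79.21 CPM and the sgRELA values 90.86, 90.04 and 79.07 CPM. On day 7 they were 49.81, 52.64 and 53.72 CPM against 59.71, 60.83 and 65.23 CPM. The guides overlapped on days 5 and 6, and on day 7 every sgRELA sample was above every sgControl sample (log2 fold change 0.25, adjusted p = 1, edgeR). Across days the log2 fold change was -0.02 with a 95% interval from -0.17 to 0.14, and it was 0.10 without the 2 libraries with few detected genes. The log2 ratio of HLA-B to HLA-C, chosen after values were seen, was 0.85 ± 0.18 (SD, n = 3) in sgControl and 1.40 ± 0.07 (SD, n = 3) in sgRELA. The difference of 0.55 had an exact two-sided permutation p of 0.1, the smallest that 3 against 3 allows. Because the ratio was chosen with the values known, this p lends no support to a difference between the guides. The difference was 0.48 without the 2 libraries. The high day 6 value of HLA-C came from 1 library, at 180.3 CPM against 71.37 to 80.41 CPM in the other libraries of that group. HLA-B and HLA-C are near-identical in much of their sequence and share 35 exon bases in GENCODE v29, so how the counting shared reads between them bears on both.

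**Figure D3:**
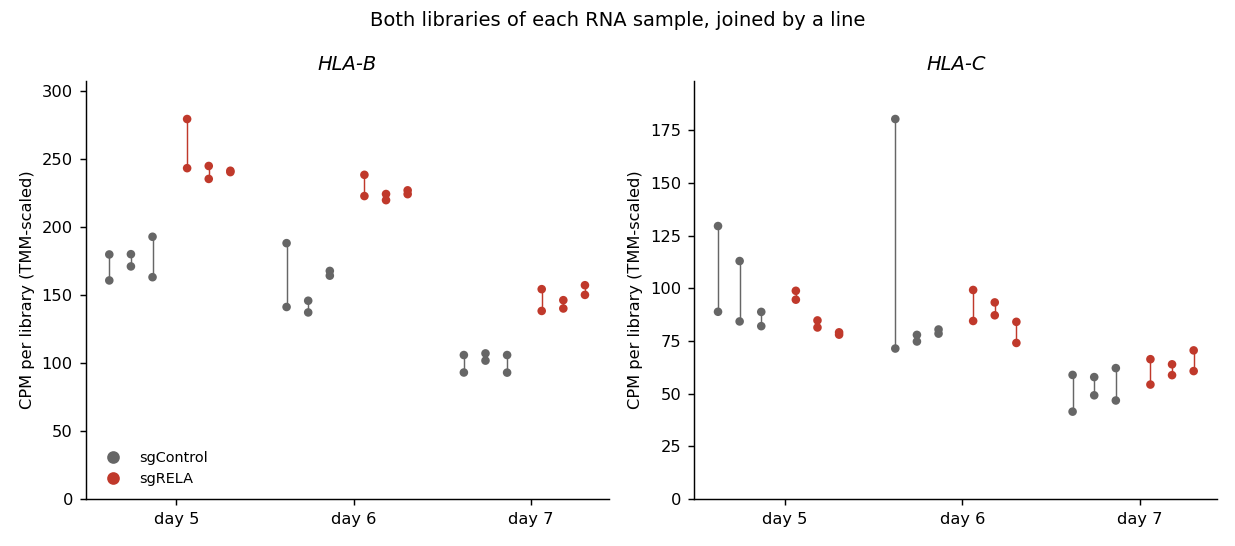
CPM of HLA-B and HLA-C in each of 36 libraries by day, the 2 libraries of an RNA sample joined by a line. HLA-B separates the guides on each day, and 1 sgControl day 6 library stands at 180.3 CPM for HLA-C.

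HLA-E, a nonclassical heavy chain recognised by NK cell receptors, and HLA-F, another nonclassical heavy chain, were not called for the guide. HLA-E on day 5 was at 139.9, 151.7 and 137.5 CPM in sgControl and 184.3, 190.3 and 152.2 CPM in sgRELA, without overlap. On day 6 it was at 120.6, 131.9 and 130.2 CPM against 138.8, 131.2 and 124.7 CPM, which overlap. On day 7 it was at 70.64, 65.48 and 77.96 CPM against 84.03, 90.68 and 81.51 CPM, again without overlap. Across days its log2 fold change was 0.22 ± 0.056 (SE; adjusted p = 0.118, edgeR). It was called with DESeq2 (adjusted p = 0.022), with no filter on low counts (adjusted p = 0.0386, edgeR) and without the 2 libraries with few detected genes (0.28, adjusted p = 0.0417, edgeR). HLA-F was the lowest of the heavy chains described here, at 14.7 CPM under both guides, with a 95% interval of the log2 difference from -0.24 to 0.24. On day 7 it was at 8.654, 10.53 and 12.36 CPM in sgControl and at 8.434, 8.04 and 7.215 CPM in sgRELA, every sgRELA sample lower (log2 fold change -0.41, adjusted p = 1, edgeR).

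The light chain and the peptide supply genes did not pass the test of the guide either. B2M, the light chain of every class I molecule, was at 122.5 ± 5.89 CPM (SD, n = 3) in sgControl and 137.2 ± 9.60 CPM (SD, n = 3) in sgRELA over the days (log2 fold change 0.16, adjusted p = 0.471, edgeR). PSMB9 was at 30.41 ± 2.37 and 35.81 ± 1.64 CPM (SD, n = 3 each), every sgRELA sum being above every sgControl sum (0.24, adjusted p = 0.512, edgeR). By day, sgRELA lay above sgControl without overlap in B2M on days 6 and 7 and in PSMB9 on days 5 and 6. Full separation of 3 against 3 has an exact two-sided permutation p of 0.1. How many of all genes separate the guides in this way was not counted, so non-overlap is given as a description. TAP1 was at 55.95 ± 4.05 and 60.99 ± 2.27 CPM (SD, n = 3 each; 0.12, adjusted p = 0.812, edgeR). TAP2 was at 89.18 and 91.78 CPM, with a 95% interval of the log2 difference from -0.08 to 0.16. NLRC5, the class I transactivator, was at 66.09 and 69.39 CPM, with an interval from -0.09 to 0.23. In GENCODE v29 TAP2 shares 32.3% of its exon bases with a read-through gene, and HLA-F, TAP1 and PSMB9 overlap antisense or neighbouring genes, while the strand setting of the counting is not given in the sources used here. Of the 9 genes, 8 had a log2 fold change above 0 across days, HLA-F among them at 0 after rounding, and the median was 0.12 against -0.002 over all genes tested. Of the 8 only HLA-B was called, and the 95% intervals of HLA-F, TAP1, TAP2 and NLRC5 held 0. The guide by day interaction was called for none of them with edgeR (0 at an unadjusted p under 0.05, and 0 with DESeq2), and for 0.00363% of all genes.

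**Figure D4:**
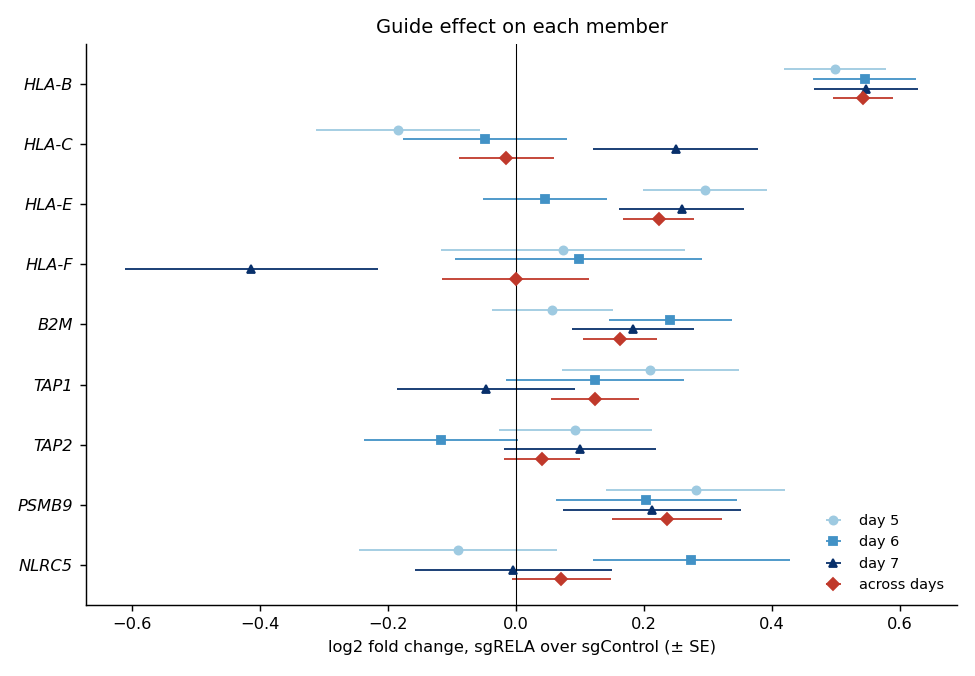
Log2 fold change of sgRELA over sgControl (x axis) for the 9 genes on each day and across days, with SE bars from edgeR. HLA-B lies between 0.50 and 0.55 throughout, and HLA-F on day 7 lies lowest at -0.41.

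Over time the class I surface genes described here fell in both guides: the 4 heavy chains and B2M were called lower in each. Between day 5 and day 7, 5 of the 9 genes were called lower in sgControl and 6 in sgRELA, beside 6.36% and 6.06% of all genes lower and 13% and 12.4% called in either direction. HLA-E showed the change in both arms, with a log2 fold change of -1.0 ± 0.099 (SE) in sgControl (adjusted p = 1.47e-08, edgeR) and -1.04 ± 0.098 (SE) in sgRELA (adjusted p = 7.16e-09, edgeR). HLA-B changed by -0.81 in sgControl and -0.76 in sgRELA, and B2M by -0.77 and -0.64. Without the 2 libraries with few detected genes, the sgControl changes were -0.79 for HLA-B, -0.83 for HLA-C, -0.96 for HLA-E, -0.82 for HLA-F and -0.66 for B2M, all called. HLA-C changed by -0.92 and -0.48, the latter called in 10 of 14 alternatives and not without sgRELA replicate 1 (adjusted p = 0.209, edgeR) or replicate 2 (adjusted p = 0.0759). HLA-F changed by -0.83 and -1.32, the former called in 12 of 14 and not without sgControl replicate 1 (-0.57, adjusted p = 0.138, edgeR). TAP1 was called in sgRELA (-0.50, adjusted p = 0.0144, edgeR) and not in sgControl (-0.24, adjusted p = 0.299), and its guide by day interaction was not called (unadjusted p = 0.422, adjusted p = 1, edgeR). The sgRELA call of TAP1 held in 10 of 14 alternatives and was lost without replicate 1, 2 or 3 of sgRELA (adjusted p = 0.0626, 0.12 and 0.112, edgeR). TAP2, PSMB9 and NLRC5 were called in neither guide, with log2 fold changes from 0.12 to 0.24. Of 7 T cell markers, CD3D, CD3G and LCK were called higher on day 7 in both guides, CD3G by 0.82 and 0.87, and CD247 was called lower in sgControl (-0.34, adjusted p = 0.0379, edgeR). Among all 27553 genes, 1832 were called higher in sgControl and 1749 in sgRELA. COL1A1 was called lower from day 6 to day 7 in sgControl (-0.98) and sgRELA (-1.37), and from day 5 to day 7 in sgRELA (-1.21, adjusted p = 0.0113, edgeR) but not in sgControl (-0.16). The part of these markers in the changes of the class I genes was not tested. In these bulk samples fewer cells of a state and less RNA per cell cannot be told apart.

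**Figure D5:**
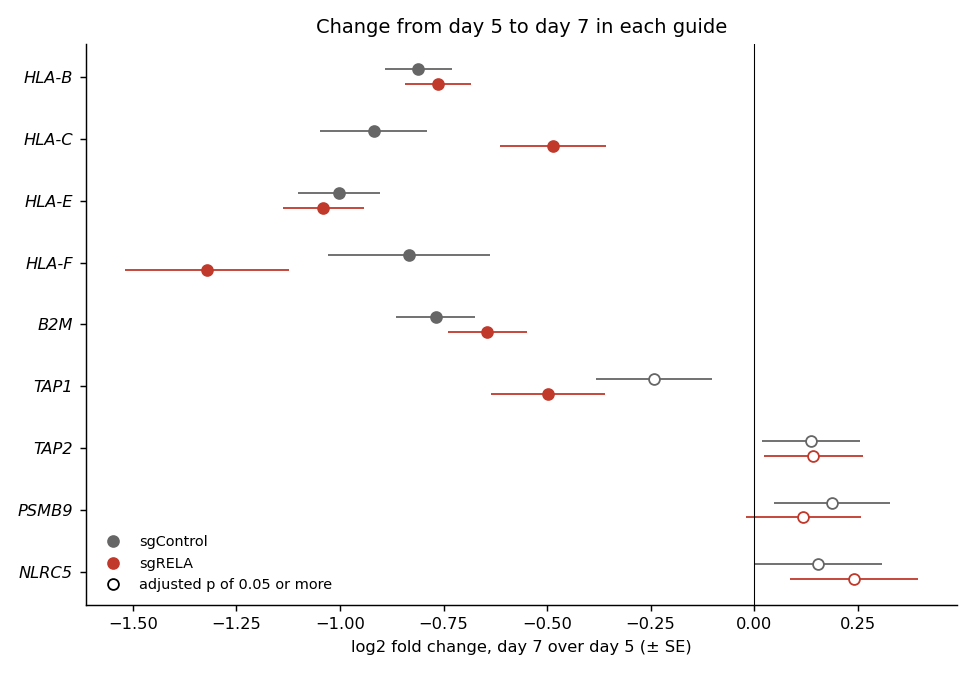
Log2 fold change from day 5 to day 7 (x axis) for the 9 genes in each guide, with SE bars from edgeR; open circles have an adjusted p of 0.05 or more. The heavy chains and B2M lie between -0.48 and -1.32, and TAP2, PSMB9 and NLRC5 lie above 0.

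The steps between days were uneven. From day 5 to day 6, B2M fell in sgControl (-0.51, adjusted p = 0.000533, edgeR). That is 1 gene of 9 called, a share near the 8.87% of all genes called in either direction. The B2M change was -0.46 without the 2 libraries with few detected genes, and -0.29 and not called with the second library only (adjusted p = 0.131, edgeR). In B2M the 3 sgControl samples went from 183.3, 158.4 and 143.6 CPM on day 5 to 108.8, 118.0 and 112.9 CPM on day 6 and 92.42, 96.86 and 95.49 CPM on day 7. In sgRELA 3 genes were called in that step, beside 6.91% of all genes called in either direction: HLA-E and B2M fell and NLRC5 rose. The HLA-E change (-0.42) was called in 10 of 14 alternatives and not without sgRELA replicate 1 (adjusted p = 0.0658, edgeR) or replicate 2 (adjusted p = 0.139). The B2M change (-0.33) was called in 7 of 14, not without replicate 1, 2 or 3 of sgRELA (adjusted p = 0.201, 0.208 and 0.103, edgeR), and was -0.52 with the first library and -0.10 with the second. NLRC5 went from 61.57, 44.67 and 63.41 CPM to 97.36, 88.47 and 76.04 CPM (0.63, adjusted p = 0.0095, edgeR), and it was not called without sgRELA replicate 1 (adjusted p = 0.0856) or replicate 2 (adjusted p = 0.218). In sgControl NLRC5 was at 0.26 in that step (adjusted p = 0.362, edgeR), and its guide by day interaction was not called (unadjusted p = 0.233, edgeR). From day 6 to day 7, HLA-B, HLA-C and HLA-E fell in sgControl, and HLA-B, HLA-C, HLA-E, HLA-F and B2M fell in sgRELA. Of all 27553 genes, 1739 were called lower in sgControl and 1382 in sgRELA, with 14.6% and 12.2% called in either direction. Without the 2 libraries the sgControl change of HLA-C went from -0.78 to -0.51 and was still called. In sgRELA HLA-C (-0.49) was not called without replicate 1 (adjusted p = 0.133, edgeR) or replicate 2 (adjusted p = 0.131). B2M had similar values in both guides, -0.25 in sgControl (adjusted p = 0.0754, edgeR) and -0.31 in sgRELA (adjusted p = 0.0277). The sgRELA call of B2M held in 8 of 14 alternatives and was lost without the 2 libraries (adjusted p = 0.0507) and without replicate 1, 2 or 3 of sgRELA (adjusted p = 0.178, 0.1 and 0.2, edgeR). HLA-F was at -0.55 in sgControl (adjusted p = 0.0575, edgeR) and -1.06 in sgRELA (adjusted p = 0.000258), and its guide by day interaction was not called (adjusted p = 1). NLRC5 was at -0.11 in sgControl (adjusted p = 0.759, edgeR) and -0.39 in sgRELA (adjusted p = 0.112), the latter called in 2 of 14 alternatives. TAP2 was at 0.13 in sgControl (adjusted p = 0.59, edgeR) and 0.345 in sgRELA (adjusted p = 0.056), the latter called in 5 of 14. The share of counts from mitochondrial genes was 7.43% to 9.28% on day 5, 8.33% to 9.87% on day 6 and 7.41% to 7.85% on day 7, and its part in these changes was not tested.

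Levels between genes were compared per length, as CPM per kilobase of the union of GENCODE v29 exons. The union holds every annotated exon, 6079 bases for B2M, 3072 for PSMB9 and 2975 for HLA-E. A gene with annotated exons that few of its transcripts use can be placed too low, so the order depends on the annotation. The median over 18 RNA samples was highest for HLA-B at 55.3, then HLA-E at 43.9 and HLA-C at 31.6. B2M followed at 19.7, TAP2 at 14, TAP1 at 11.6 and PSMB9 at 10.2, with NLRC5 at 5.2 and HLA-F at 3.52. The sample ranges of all neighbours in this order overlapped except PSMB9 (8.77 to 13.3) and NLRC5 (3.61 to 7.86). HLA-B ran from 32.3 to 86.3, HLA-E from 22 to 64, HLA-C from 19.9 to 45.2 and B2M from 15.2 to 30.2. These ranges pool days between which the heavy chains and B2M fell. Apart from B2M on chromosome 15 and NLRC5 on chromosome 16, the genes lie in the MHC on chromosome 6. There the first RefSeq start of TAP1 and the start of PSMB9 are 488 bases apart.

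No gene of the 5 other pathway lists was called for the guide across days. Among 7 proteasome partners the smallest p values belonged to PSMB8, another immunoproteasome subunit (log2 fold change 0.20, adjusted p = 0.308, edgeR), and PSME2, a proteasome activator subunit (0.18, adjusted p = 0.512, edgeR). Among 7 peptide loading and trimming genes all 7 lay above 0, led by the trimming enzyme ERAP2 (0.16, adjusted p = 0.481, edgeR). Of 11 class I promoter factors none exceeded 0.13 in size. Of 6 interferon-gamma signalling genes 5 were tested, with JAK2 at 0.15. The class II genes were low, none above 3.07 CPM in either guide's mean over the days. The highest mean of a single day was 5.262 CPM, for HLA-DRB1 in sgControl on day 5.

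Between day 5 and day 7, 2 proteasome partners were called higher in each guide, 1 loading and trimming gene higher in each, and 2 and 1 promoter factors higher in sgControl and sgRELA. Among interferon-gamma signalling genes 1 was called lower in each guide, and 2 and 1 class II genes lower. Of all 27553 genes tested, 1832 in sgControl and 1749 in sgRELA were called higher, and 6.36% and 6.06% lower. A count of 1 gene in lists this small is not a result about the list. PSME2 rose from day 5 to day 7 by 0.73 in sgControl and 0.80 in sgRELA on the log2 scale, and the constitutive subunit PSMB7 rose by 0.32 in both. IRF1, an interferon regulatory factor, rose by 0.79 in both guides. IFNGR1, a chain of the interferon-gamma receptor, fell by 0.65 in sgControl and by 0.99 in sgRELA. ERAP2 rose by 0.47 and 0.42. The chaperone CALR, part of the loading complex, rose on day 6 by 0.96 and 0.98 and fell on day 7 by 0.81 and 0.93, and PDIA3, its partner oxidoreductase, did likewise (0.71 and 0.80, then -0.94 and -0.97).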

How the data were processed

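Total RNA of 18 RNA samples, in 36 libraries, was measured by RamDA-seq. The authors deposited raw counts per Ensembl gene; per the submitters' processing notes, cutadapt 1.18, STAR 2.7.9a and GRCh38 were used, and the counting tool, annotation, strand and treatment of multi-mapping reads are not given in the sources used here. Both libraries of an RNA were added. Counts were tested in R 4.3.3 with edgeR 4.0.16 (TMM, filterByExpr with a minimum count of 10, quasi-likelihood F test, Benjamini-Hochberg over all genes, calls at an adjusted p under 0.05). Guide effects by day, day effects and the interaction used 18 RNA samples, and the guide effect across days used 6 sums over days. DESeq2 1.42.0, other scalings, filters and left-out libraries or replicates were alternatives. The scripts were tested on simulated data. The members and lists were chosen with earlier results of these data known. Named were all 9 members, RELA, up to 4 genes per other list with the smallest p across days and between day 7 and day 5 of sgControl, and the 5 genes most alike in log2(CPM + 1). From that last list, class I heavy chain genes outside the members, among them the highest-ranked gene, were left out after the values were seen. Transductions were separate, but p-values cover the spread between these samples only. A marker of the B cell list is not reported here.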

Additional observations from a re-analysis of the deposited data

Results flagged for a closer look

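Within each group of 6 libraries, a single library far from the other 5 was looked for in each of the 9 genes. Of 54 searches 4 passed, where chance passes about 1 in 20. HLA-B was at 279.1 CPM in library 2 of sgRELA day 5 replicate 1, against 235.1 to 244.6 CPM in the others. HLA-F was at 8.426 CPM in library 1 of sgControl day 5 replicate 3, against 17.88 to 23.55 CPM. Library 1 of sgControl day 6 replicate 1 was high for HLA-C, at 180.3 CPM against 71.37 to 80.41 CPM, and for NLRC5, at 132.4 CPM against 51.3 to 72.64 CPM. It is 1 of the 2 libraries with few detected genes.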

How the results depend on the processing

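Of 1269 member values recomputed over 15 settings, 0 called values changed direction, 39 lost a call and 18 gained one. Another 46 values, called in neither fit and at most 0.29 in size, changed sign and are counted as unchanged. HLA-B across days was called in all 15 alternatives, at 0.53 to 0.58. Across days 2 genes were called, in place of 1, with DESeq2, with no filter and without the 2 libraries with few detected genes (HLA-E was gained). With the first library only, 0 were called on each of days 5, 6 and 7, 0 from day 5 to day 6 in sgRELA and 3 from day 6 to day 7 in sgRELA. With the second library only, 0 were called from day 5 to day 6 in either guide. From day 5 to day 6 in sgControl, 2 were called with DESeq2 and without the 2 libraries. From day 6 to day 7 in sgControl, 5 were called with DESeq2 and with upper-quartile scaling. Leaving out single replicates gave 0 to 1 for the guide on day 5 and 1 to 2 from day 5 to day 6 in sgControl. In sgRELA it gave 0 to 3 from day 5 to day 6 and 3 or more from day 6 to day 7. In that last step, leaving out sgControl replicate 1 gained TAP2 (adjusted p = 0.0359, edgeR) and NLRC5 (adjusted p = 0.0392, edgeR). Leaving out sgControl replicate 2 gained TAP2 (adjusted p = 0.0246, edgeR). The causes were not tested, though 1 library per RNA also holds fewer counts. The number of all genes called can change with the setting too, so these counts are not a result about the 9 genes alone. Same-numbered samples did not deviate together (median r -0.002 between guides of one day), and 7 of 18 samples correlated best with their own number in the other guide. With the replicate block the member counts were unchanged, at 1 across days and 1 on each day, 5 and 6 from day 5 to day 7, while all genes called across days went from 105 to 124. Counts for the other lists were recomputed as alternatives chosen after seeing the data.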

Other observations

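Among genes other than class I heavy chains, the highest correlations with the members' mean standardised log2(CPM + 1) profile over the 18 RNA samples were those of MARS1 (r = 0.881), SLC7A11 (0.880), FURIN (0.879), PTTG1IP (0.878) and REEP2 (0.874), of 9926 candidates with a median r of -0.004. These are descriptions over samples that share day and guide, with no p. Among the members, HLA-E correlated with HLA-B at 0.869 over the 18 samples and at -0.079 within groups, and with B2M at 0.849 and -0.239. These are among the highest pairs. Pairs that include TAP2, PSMB9 or NLRC5 ran from -0.47 to 0.19 over the 18 samples, so the mean profile averages genes that moved differently.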
